A study of Mus musculus with 11 samples.

Results

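The transcription factors of the megakaryocyte and erythroid lineages were followed in haematopoietic stem cells of mouse bone marrow. The set held 10 genes, namely Gata1, Gata2, Zfpm1, Gfi1b, Tal1, Lyl1, Cbfa2t3, Fli1, Runx1 and Nfe2. They were picked by symbol from the 49585 entries of the count table, and all 10 were found, had counts in all 11 libraries and stayed in the 13448 genes tested. None was left out by the filter on low counts.

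These factors work largely in shared complexes. GATA factors bind GATA motifs in DNA, and TAL1 or LYL1 binds E-box motifs beside them, held together by LMO2 and LDB1. Stem and progenitor cells are known to rely on GATA2, and its exchange for GATA1 on chromatin accompanies entry into the megakaryocyte and erythroid lineages. RUNX1 and FLI1 join at megakaryocyte genes, NFE2 drives the last steps that release platelets, and GFI1B and CBFA2T3 recruit repressors.

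The cells came from C57BL/6 mice and were sorted as Lin-, c-Kit+, Sca-1+, CD48- and CD150+. They were then divided by surface CD41, the integrin chain encoded by Itga2b, into CD41- and CD41+ stem cells. Control mice had received rabbit serum, and the other mice had been depleted of platelets and were studied 24 h later. The antibody or dose used for depletion and the age of the mice were not analysed here. Control mice gave 3 libraries of CD41- and 2 of CD41+ cells, and depleted mice gave 3 of each, each from about 1000 cells pooled from 3 mice. The data therefore hold a single time point, and a pool averages its mice.

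Library totals ran from 0.974 M counts (depleted CD41+ replicate 1) to 9.95 M (depleted CD41- replicate 1), with a median of 3.88 M. Levels are given as CPM, read counts after scaling every library to an equal total. The floor set by 3 counts, computed on library totals without the normalisation factors, lay at 0.301 to 3.08 CPM. Such floors cover counting error only, since PCR copies were not marked. Stem cell transcripts such as Procr and Hlf were present in all 11 libraries, and Itga2b was between 169.8 and 425 CPM in the 5 CD41+ libraries and between 37.5 and 98.5 CPM in the 6 CD41- libraries. Transcripts of other cells varied between libraries of the same group. The summed eosinophil markers were at 799 and 349 CPM in depleted CD41- replicates 1 and 3 but at 9.21 CPM in replicate 2. The summed mast cell and basophil markers reached 578 CPM in control CD41- replicate 3, against 20.9 and 73.0 CPM in the other two. The results below were therefore also computed without each library in turn.

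For the 4 genes that passed the test between the CD41 fractions, the sequence upstream of a listed start is shown first. GATA and E-box motifs are those bound by the factors themselves. Each gives the 250 bases before a RefSeq transcription start on GRCm38.p6, read 5′ to 3′ on the strand of the gene, with GATA motifs (AGATAA or its variant AGATAG, and likewise TGATAA or its variant TGATAG) and E-boxes (CANNTG) in capitals, searched on both strands. The positions are chrX:7967911-7968160 (minus strand) for Gata1, chr2:28621983-28622232 (minus strand) for Gfi1b, chr8:84701207-84701456 (plus strand) for Lyl1 and chr8:122699110-122699359 (minus strand, the upstream one of 2 listed starts) for Cbfa2t3.
Gata1: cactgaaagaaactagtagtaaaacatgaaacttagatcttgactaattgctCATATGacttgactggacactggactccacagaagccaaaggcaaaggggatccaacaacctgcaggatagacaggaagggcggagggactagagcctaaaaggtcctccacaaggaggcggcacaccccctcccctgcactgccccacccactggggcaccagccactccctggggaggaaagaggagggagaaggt
Gfi1b: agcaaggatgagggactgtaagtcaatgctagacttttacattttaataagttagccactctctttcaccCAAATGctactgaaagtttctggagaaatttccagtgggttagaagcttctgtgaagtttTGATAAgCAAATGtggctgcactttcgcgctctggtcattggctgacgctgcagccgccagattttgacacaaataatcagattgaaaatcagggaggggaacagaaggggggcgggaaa
Lyl1: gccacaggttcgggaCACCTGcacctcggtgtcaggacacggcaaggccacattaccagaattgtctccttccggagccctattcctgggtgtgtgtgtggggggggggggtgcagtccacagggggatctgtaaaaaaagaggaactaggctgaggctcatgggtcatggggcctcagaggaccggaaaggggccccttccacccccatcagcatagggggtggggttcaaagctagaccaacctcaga
Cbfa2t3: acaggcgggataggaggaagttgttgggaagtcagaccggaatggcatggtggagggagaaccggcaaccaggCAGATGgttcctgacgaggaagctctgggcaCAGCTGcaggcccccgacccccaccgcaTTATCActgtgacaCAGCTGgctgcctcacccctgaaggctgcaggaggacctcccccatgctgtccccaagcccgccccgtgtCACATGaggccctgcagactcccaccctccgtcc
The stretch before Gfi1b held a GATA motif from position -120 to -115, where -1 is the base before the start, and 2 E-boxes, both reading CAAATG. That before Cbfa2t3 held a GATA motif on the other strand from -118 to -113 and 4 E-boxes, of which the 2 nearest to the GATA motif both read CAGCTG. The window of the other listed Cbfa2t3 start, not shown, held 0 GATA motifs and 1 E-box. Those before Gata1 and Lyl1 held 1 E-box each, CATATG and CACCTG, and no GATA motif in this window. The Gata1 window lies inside the annotated gene, chrX:7959260-7978071. It therefore says nothing of the bases upstream of the 5′ end of that span, which were not searched. Over all 32851 promoter windows of the RefSeq table, each 300 bases long, 29.8% held a GATA motif and 72.3% an E-box. A match describes the letters only. Windows were listed for 8 of the 10 genes. Among those of the members not shown, the upstream Tal1 window had a GATA motif from -205 to -200.

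CPM values below, like the levels above, are after TMM normalisation. Fold changes are given as log2 values ± SE from edgeR quasi-likelihood tests. Their p-values were adjusted by Benjamini-Hochberg over 13448 genes, with a threshold of 0.05. Changes per cell and changes in the share of cells that express a gene cannot be told apart in such bulk samples. To compare genes with each other, levels were also divided by exon length and scaled to a common sum. On that length-scaled level Nfe2 ranked highest in all 11 libraries, at 632 ± 79.9 in control CD41- cells (SD, n = 3), and Lyl1 ranked next in the means of all 4 groups. Fli1 and Gfi1b took the next 2 places in each group mean, and their ranges overlapped in control CD41-, control CD41+ and depleted CD41+ cells. Zfpm1 ranked lowest in all 11 libraries, at 6.42 ± 2.36 in control CD41- cells. Gata2 held place 5 or 6 and Gata1 places 5 to 7 in the group means. Neighbours in this order were not always apart, since Nfe2 and Lyl1 overlapped in control CD41- cells, with lows of 540.1 and 361 and highs of 684 and 562. Across libraries the most variable of the 10 was Gata1, with a root mean square spread of 1.23 on the log2 scale.

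**Figure D1:**
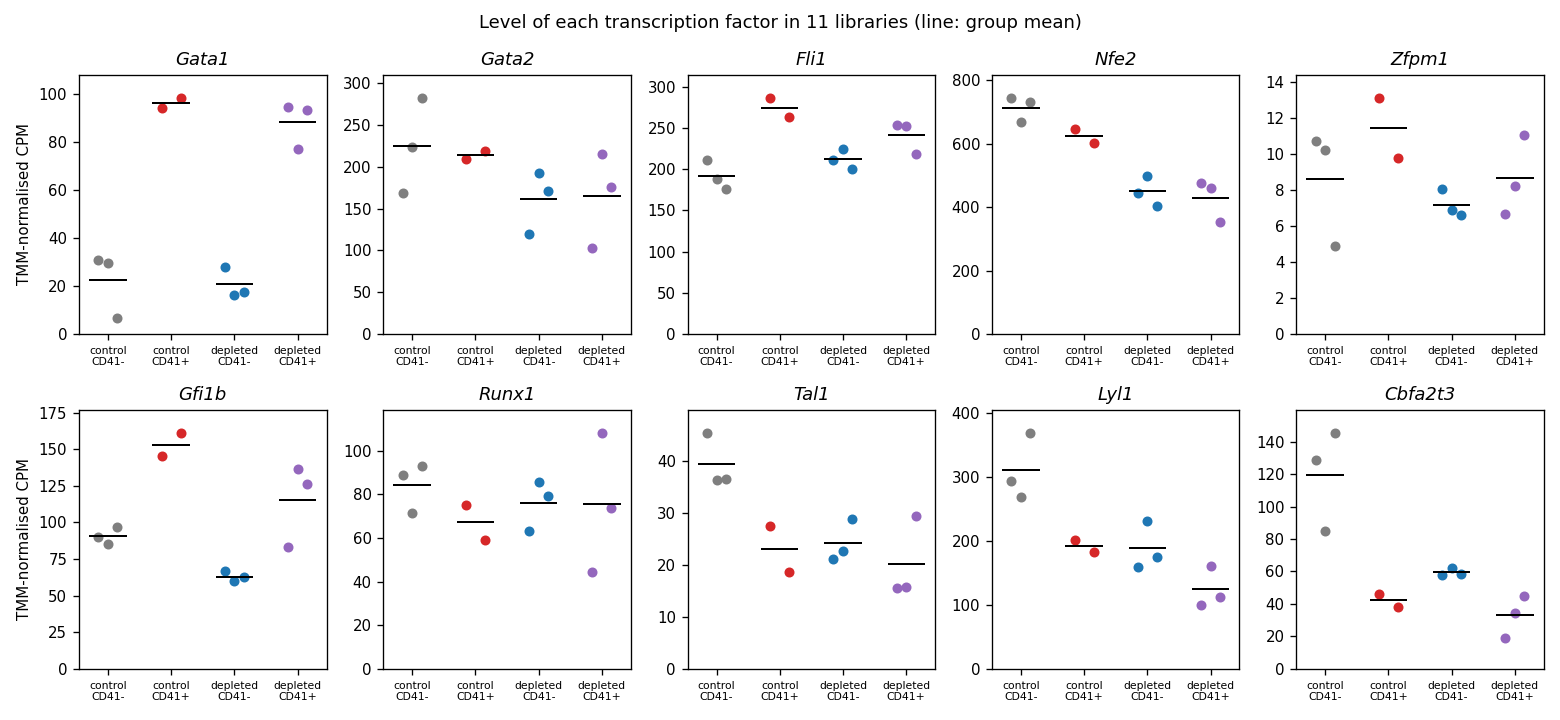
Level of each of the 10 transcription factors in TMM-normalised CPM (y axis, from 0, a scale of its own for each gene) in the 11 libraries, by group (x axis); points are libraries and lines are group means. The 5 CD41+ libraries lie above all 6 CD41- libraries for Gata1, and the 6 libraries of depleted mice lie below all 5 of control mice for Nfe2.

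CD41+ stem cells differed from CD41- stem cells in 4 of the 10 factors when the difference was averaged over control and depleted mice. Gata1 and the repressor Gfi1b were higher, and Lyl1 and the corepressor Cbfa2t3 were lower. The other 6 factors did not pass. Of all genes tested, 5.38% passed (2.73% higher and 2.65% lower). The median log2 fold change was -0.07 over the 10 factors and -0.03 over all genes. With library size alone in place of TMM, the median of all genes was -0.12 and the calls split into 250 higher and 445 lower in place of 367 and 357, while the count of the factors stayed at 2 higher and 2 lower.

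Of the 2 GATA factors, Gata1 passed along CD41 and Gata2 did not. Gata1 (ENSMUSG00000031162, GRCm38 chrX:7959260-7978071, minus strand), the factor that megakaryocytes and red cell precursors need to mature, stood at 30.8, 29.6 and 6.81 CPM in the 3 CD41- and at 94.3 and 98.3 CPM in the 2 CD41+ libraries of control mice. Its depleted CD41- libraries held 28, 16.3 and 17.7 CPM, and the CD41+ ones 94.5, 77.2 and 93.5 CPM. The fractions did not overlap in either treatment, and the lowest CD41- library, control replicate 3, held 28 counts. The difference was 2.09 ± 0.30 (adjusted p = 0.00236), it was 1.87 without that library, and it passed in all 11 fits that left out 1 library.

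Gata2 (ENSMUSG00000015053, chr6:88193891-88207032, plus strand), the GATA factor of stem and progenitor cells, stood at 169, 223 and 282 CPM in the 3 CD41- and at 209.7 and 219 CPM in the 2 CD41+ libraries of control mice. After depletion the CD41- libraries gave 119.7, 193 and 171 CPM and the CD41+ libraries 102, 216 and 176 CPM. The fractions overlapped in both treatments, and the average difference was -0.01 ± 0.19 (adjusted p = 0.987). Its sign changed with the scaling, at 0.01 with RLE factors.

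On the length-scaled level the ratio of Gata1 to Gata2 was 0.404, 0.293 and 0.0535 in control CD41- cells. It was 0.996 in both control CD41+ libraries. In depleted mice it was 0.518, 0.188 and 0.230 in CD41- cells and 2.05, 0.793 and 1.18 in CD41+ cells. All 6 CD41- libraries thus lay below all 5 CD41+ libraries, and 2 of the 5 CD41+ libraries had more Gata1 than Gata2 on this scale. That crossing rests on the annotated exon lengths, 2.44 kb for Gata1 and 5.4 kb for Gata2. In CPM, Gata2 was above Gata1 in every library, with a lowest value of 102 against a highest Gata1 of 98.3. The ratio of 2.05 belongs to depleted CD41+ replicate 1, the shallowest library, in which Gata2 held 92 counts. This ratio is a description and was not tested.

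**Figure D2:**
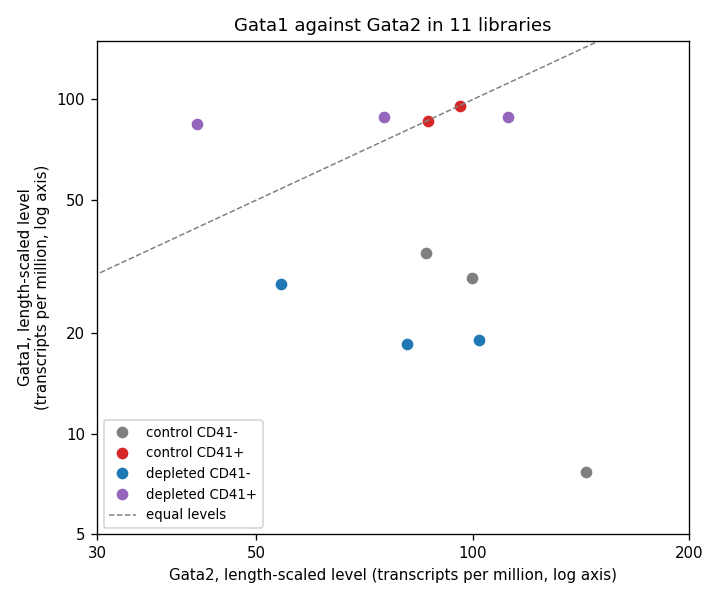
Length-scaled level of Gata1 (y axis) against that of Gata2 (x axis) in 11 libraries, both on log axes, with colours for the 4 groups and a dashed line where both levels are equal. CD41+ libraries lie near the line, with ratios from 0.793 to 2.05, and CD41- libraries lie below it, with ratios from 0.0535 to 0.518.

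Zfpm1 (ENSMUSG00000049577, chr8:122282141-122337251, plus strand), which encodes FOG1, the cofactor that binds GATA factors, was low throughout, at 4.86 to 13.1 CPM and 6 to 79 counts. Its fractions overlapped, and its difference of 0.35 ± 0.30 did not pass (adjusted p = 0.514).

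Gfi1b (ENSMUSG00000026815, chr2:28609450-28621982, minus strand), a zinc finger repressor needed for platelet and red cell formation, stood at 90.2, 85.6 and 96.8 CPM in the 3 CD41- and at 145 and 161 CPM in the 2 CD41+ libraries of control mice. The corresponding values of depleted mice were 66.5, 59.7 and 62.9 CPM without and 83.4, 136 and 126 CPM with CD41. All CD41+ libraries lay above the CD41- libraries of the same treatment. The average difference was 0.82 ± 0.14, or 1.77-fold (adjusted p = 0.0050), and it passed in all 11 fits that left out 1 library. Among all genes, 3.81% were higher without overlap in both treatments, as Gata1 and Gfi1b were.

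Lyl1 and Cbfa2t3, both tied to E-box complexes, were lower in CD41+ cells. Lyl1 (ENSMUSG00000034041, chr8:84701457-84704715, plus strand), a basic helix-loop-helix factor that shares functions with TAL1 in stem cells, stood at 293, 269 and 368 CPM in the 3 CD41- and at 201 and 183 CPM in the 2 CD41+ libraries of control mice. Its depleted CD41- libraries held 159.7, 231 and 175 CPM, and the CD41+ ones 100.1, 159.9 and 112 CPM. The control fractions did not overlap, and in depleted mice the highest CD41+ library lay just above the lowest CD41- library. The average difference was -0.64 ± 0.15 (adjusted p = 0.0283). It lost the call without control CD41+ replicate 1 (adjusted p = 0.0757) or 2 (0.112), control CD41- replicate 3 (0.0621), depleted CD41- replicate 2 (0.0712) or depleted CD41+ replicate 3 (0.0615).

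Tal1 (ENSMUSG00000028717, chr4:115056426-115071755, plus strand), the helix-loop-helix factor of the GATA complex, stood at 45.4, 36.4 and 36.5 CPM in the 3 CD41- and at 27.5 and 18.6 CPM in the 2 CD41+ libraries of control mice. After depletion the CD41- libraries gave 21.1, 22.6 and 28.9 CPM and the CD41+ libraries 15.6, 15.7 and 29.4 CPM. The depleted fractions overlapped, and the average of -0.50 ± 0.23 did not pass (adjusted p = 0.213).

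Cbfa2t3 (ENSMUSG00000006362, chr8:122625141-122699109, minus strand), which encodes the corepressor ETO2 of the TAL1 complex, stood at 128, 85.1 and 145 CPM in the 3 CD41- and at 46.2 and 38.2 CPM in the 2 CD41+ libraries of control mice. The corresponding values of depleted mice were 58.1, 62.4 and 58.6 CPM without and 18.9, 34.7 and 45.2 CPM with CD41. The fractions did not overlap in either treatment, as was the case for 3.77% of all genes in this direction. The difference was -1.15 ± 0.20, or 2.22-fold lower (adjusted p = 0.0068), and it passed in all 11 fits that left out 1 library. An antisense gene, Gm10612, shares 295 exon bases with Cbfa2t3 and held 44 counts in all, and a strand setting for counting is not stated in these sources.

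Fli1 (ENSMUSG00000016087, chr9:32422204-32542861, minus strand), the ETS factor of megakaryocyte genes, stood at 211, 188 and 176 CPM in the 3 CD41- and at 286 and 263 CPM in the 2 CD41+ libraries of control mice. Its depleted CD41- libraries held 211, 224 and 200.3 CPM, and the CD41+ ones 254, 253 and 218 CPM. The control fractions did not overlap and the depleted ones did. The average of 0.35 ± 0.11 did not pass with edgeR (adjusted p = 0.0673) and passed with DESeq2 (adjusted p = 0.00807).

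Runx1 (ENSMUSG00000022952, chr16:92601466-92826149, minus strand), the core binding factor needed to form stem cells and megakaryocytes, lay between 44.5 and 108 CPM, with fractions that overlapped in both treatments. Its average difference was -0.15 ± 0.20 (adjusted p = 0.691). The antisense gene Gm26626 shares 106 exon bases with Runx1 and held 113 counts. Nfe2 (ENSMUSG00000058794, chr15:103248212-103258403, minus strand), the leucine zipper factor of platelet release, stood at 743, 669 and 731 CPM in the 3 CD41- and at 646 and 604 CPM in the 2 CD41+ libraries of control mice. After depletion the CD41- libraries gave 446, 499.7 and 403 CPM and the CD41+ libraries 476, 459 and 354 CPM. Its average difference along CD41 was -0.13 ± 0.11 (adjusted p = 0.524).

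**Figure D3:**
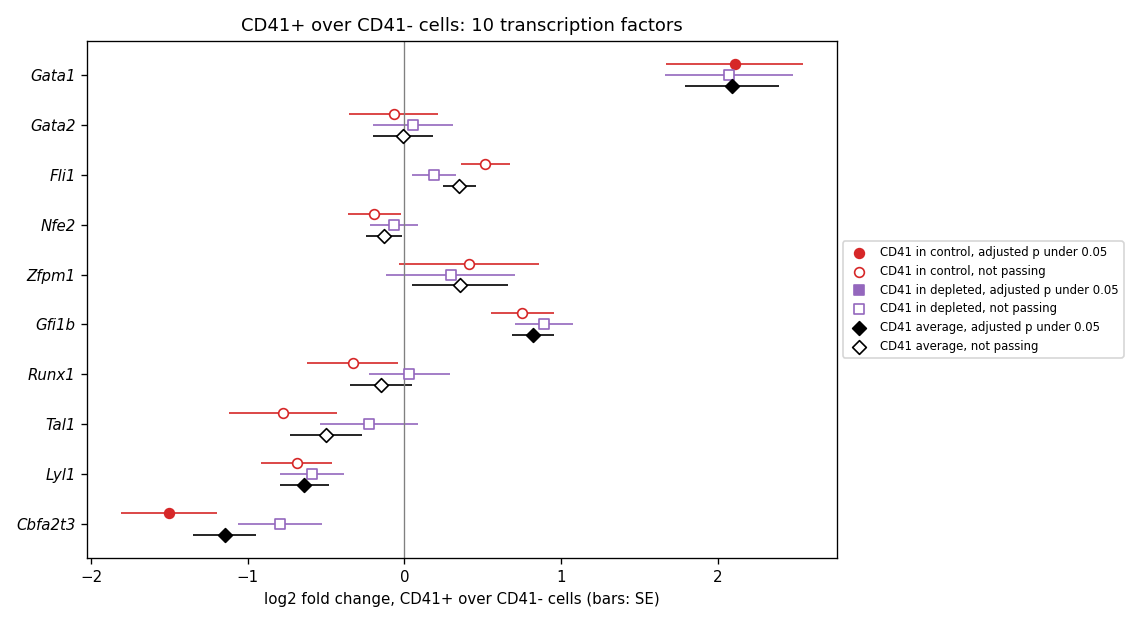
Log2 fold change of the 10 factors in CD41+ over CD41- stem cells (x axis, bars are SE) in control mice (circles), depleted mice (squares) and on average (diamonds); filled symbols passed at an adjusted p under 0.05. Gata1 at 2.09 and Gfi1b at 0.82 lie to the right on average, and Cbfa2t3 at -1.15 and Lyl1 at -0.64 to the left.

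Within control mice, 2 of the 10 factors passed along CD41, against 2.62% of all genes. Gata1 was higher by 2.11 ± 0.44 (adjusted p = 0.0236) and Cbfa2t3 lower at -1.50 ± 0.31 (adjusted p = 0.0205). Gfi1b at 0.75 (0.0629), Fli1 at 0.51 (0.0928) and Lyl1 at -0.69 (0.120) did not pass. Both calls depended on single libraries. Gata1 missed the threshold without control CD41+ replicate 1 (adjusted p = 0.0769) or 2 (0.127) and when control libraries alone were fitted (0.0747). Cbfa2t3 missed it without either of these (0.0805 and 0.183) and without control CD41- replicate 1 (0.0558) or 3 (0.0680).

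Within depleted mice, 0 of the 10 factors passed along CD41 with edgeR, against 0.193% of all genes. At an unadjusted p under 0.05 there were 4, against 9.18% of all genes. DESeq2 called 2, Gata1 and Gfi1b, against 1.52% of the genes to which it gave an adjusted p. The fold changes were 2.07 ± 0.41 for Gata1 (adjusted p = 0.0651), 0.89 ± 0.18 for Gfi1b (0.0761), -0.79 ± 0.27 for Cbfa2t3 (0.331) and -0.59 ± 0.20 for Lyl1 (0.343). Gata1 passed without control CD41- replicate 3 (adjusted p = 0.00255), and Gfi1b passed without depleted CD41+ replicate 1 (0.0296). Gata1 also passed with consecutive title numbers as a block (0.000809).

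Platelet depletion was accompanied by lower levels of 2 of the 10 factors when averaged over the CD41 fractions. Nfe2 and Lyl1 fell, 0 rose, and 8 did not pass. Of all genes, 6.33% passed (3.6% higher and 2.73% lower). The fitted change was negative for 9 of the 10, with a median of -0.43 against -0.01 for all genes. These depletion values share their libraries with the CD41 values above.

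Nfe2 fell by 0.60 on the log2 scale (-0.60 ± 0.11, 1.52-fold lower, adjusted p = 0.0073). All 6 libraries of depleted mice, at 354 to 499.7 CPM, lay below all 5 of control mice, at 604 to 743 CPM. The call held in all 11 fits that left out 1 library. Lyl1 fell to a like degree (-0.67 ± 0.15, adjusted p = 0.0202), without overlap within either fraction. It lost the call without control CD41+ replicate 1 (adjusted p = 0.0889), depleted CD41- replicate 1 (0.0593) or 3 (0.0592), or depleted CD41+ replicate 3 (0.0553).

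The repressors gave values of the same sign that missed the threshold. Gfi1b was at -0.46 ± 0.14 (adjusted p = 0.0615) and lay lower without overlap in both fractions, as Nfe2 and Lyl1 did and as 3.91% of all genes did. Cbfa2t3 was at -0.65 ± 0.20 (adjusted p = 0.0681). DESeq2 called both (adjusted p = 0.0168 and 0.0221).

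The GATA factors did not pass. Gata1, which differed most along CD41, was at -0.11 ± 0.30 after depletion (adjusted p = 0.876), with group means of 22.4 ± 13.5 and 20.7 ± 6.38 CPM in control and depleted CD41- cells and of 96.3 ± 2.82 and 88.4 ± 9.72 CPM in CD41+ cells (SD, n = 3, 3, 2 and 3). Gata2 was at -0.42 ± 0.19 (adjusted p = 0.222), Zfpm1 at -0.31 ± 0.30 (0.610) and Tal1 at -0.43 ± 0.23 (0.295). Fli1 at -0.02 ± 0.11 (0.935) and Runx1 at 0.03 ± 0.19 (0.958) lay near 0.

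**Figure D4:**
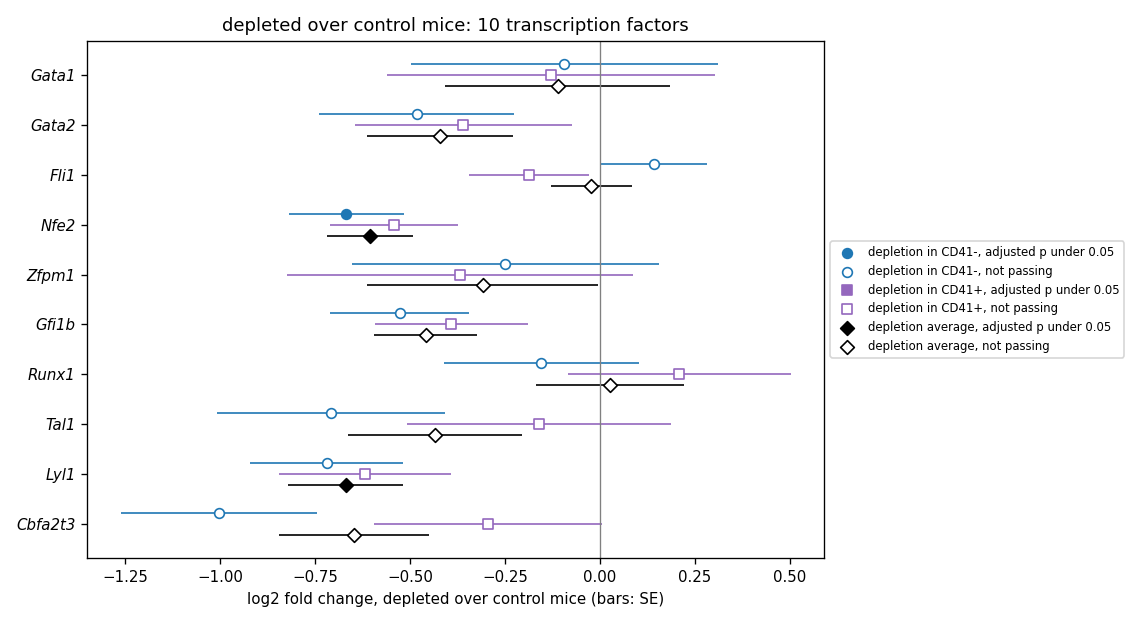
Log2 fold change of the 10 factors in depleted over control mice (x axis, bars are SE) in CD41- cells (circles), CD41+ cells (squares) and on average (diamonds); filled symbols passed at an adjusted p under 0.05. Nfe2 at -0.60 and Lyl1 at -0.67 are filled on average, and Runx1 at 0.03 and Fli1 at -0.02 lie at the zero line.

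Within CD41- cells, Nfe2 was the 1 factor of 10 that passed, against 3.19% of all genes, at -0.67 ± 0.15 (adjusted p = 0.0282). The call was lost without control CD41- replicate 1 (adjusted p = 0.0864) or 3 (0.0835) and without depleted CD41- replicate 1 (0.123) or 3 (0.157). Cbfa2t3 was at -1.0 ± 0.26 (0.0513), Lyl1 at -0.72 ± 0.20 (0.0723) and Gfi1b at -0.53 ± 0.18 (0.155). DESeq2 called 3 factors, Nfe2, Lyl1 and Cbfa2t3, against 7.5% of its genes.

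Within CD41+ cells 0 of 10 factors passed, against 0.104% of all genes, with 2 at an unadjusted p under 0.05 (12.2% of all genes) and 0 with DESeq2 (2.34% of its genes). Nfe2 was at -0.54 ± 0.17 (adjusted p = 0.217), Lyl1 at -0.62 ± 0.23 (0.299), Gfi1b at -0.39 ± 0.20 (0.463) and Cbfa2t3 at -0.29 ± 0.30 (0.746).

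Whether the fractions responded differently to depletion was tested as the difference of the responses. With edgeR 0 of the 10 factors and 0% of all genes passed, 0 factors and 825 genes (6.13%) were at an unadjusted p under 0.05, and DESeq2 called 0 factors and 35 genes (0.261%). The factor with the smallest p was Cbfa2t3, at 0.71 ± 0.40 (adjusted p = 0.875). The passing of Nfe2 in CD41- cells and not in CD41+ cells is thus not a shown difference.

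Partners of the factors were read next. The 18 tested genes encode proteins of the same complexes (LIM and E proteins, small MAF proteins, CBFB and corepressor subunits). Along CD41, 1 of the 18 was lower and 0 higher, near the 5.38% of all genes that passed, with a median of -0.25. It was Chd4, the remodelling ATPase of the NuRD complex, at -1.07 ± 0.25 (adjusted p = 0.0253). It lost the call without control CD41+ replicate 1 (0.108) or 2 (0.0750), control CD41- replicate 1 (0.0545), or depleted CD41- replicate 1 (0.0526) or 3 (0.057). After depletion 0 of the 18 passed with edgeR, against 6.33% of all genes. The smallest p belonged to Chd4 (0.76 ± 0.25, adjusted p = 0.0872) and Mafk, a small MAF partner of NFE2 (-0.65 ± 0.23, 0.110). Lmo2, the bridge of the GATA and TAL1 complex, came next (-0.62 ± 0.22, adjusted p = 0.118).

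Of 16 relatives of the factors by gene family, 13 were tested along CD41 and 2 passed, both lower, against 2.65% lower among all genes. The median over the 13 was -0.68, and over all genes -0.03. Erg, the ETS relative of Fli1 that stem cells need, was at 22 ± 2.94 CPM in CD41- and 6.04 ± 0.222 CPM in CD41+ cells of control mice, with a difference of -1.28 ± 0.25 (adjusted p = 0.0096). Runx2 was at -0.94 ± 0.25 (adjusted p = 0.0406) and passed in 3 of the 11 fits that left out 1 library, with the largest adjusted p of 0.173 without control CD41+ replicate 2. After depletion 0 of the 13 passed with edgeR, against 6.33% of all genes, and the smallest p was that of Runx2 (-0.52 ± 0.24, adjusted p = 0.235).

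Of 8 further megakaryocyte and erythroid factors, 1 passed along CD41, against 5.38% of all genes. It was Erg, which is in both lists and was already counted among the relatives above. Klf1, the factor of globin genes, was at 1.14 ± 0.32 (adjusted p = 0.0504). It passed with RLE factors (0.0446), without the filter on low counts, and with DESeq2 (0.0094) and the block (0.0395). Of the 11 fits that left out 1 library, Klf1 passed in 1. After depletion 1 of these 8 passed, against 6.33% of all genes. It was Meis1, a homeobox factor of stem cells and megakaryocytes, lower at -0.42 ± 0.11 (adjusted p = 0.0423). But Meis1 passed in 3 of the 11 fits that left out 1 library. Of 8 tested factors of other lineages (12 listed), 2 passed along CD41 and 0 after depletion, against 5.38% and 6.33% of all genes. Bcl11a, a lymphoid factor and globin repressor, was lower at -0.73 ± 0.13 (adjusted p = 0.0060), and Myb, a progenitor factor that restrains megakaryocytes, at -0.81 ± 0.18 (adjusted p = 0.0197, rising to 0.07 or 0.0793 when control CD41+ replicate 1 or 2 is left out).

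Known target genes were read beside the factors. Of 19 tested megakaryocyte genes (21 listed), 9 were higher and 0 lower along CD41, with a median of 1.32. Of all genes, 2.73% were higher and 2.65% lower. The 9 include Itga2b, which encodes the CD41 that divided the cells, so its difference was set by the sort. Among the others were Rab27b, a granule transport protein, at 0.84 ± 0.17 (adjusted p = 0.0141), and Plek, a platelet signalling protein, at 1.37 ± 0.25 (0.0096). After depletion 8 of these 19, again with Itga2b, were lower and 0 higher, with a median of -0.84. Of all genes, 2.73% were lower and 3.6% higher. Pf4, a platelet chemokine, was at -2.23 ± 0.33 (adjusted p = 0.0029) and Plek at -1.53 ± 0.25 (0.0046). Tbxas1, thromboxane synthase and a known NFE2 target, was lower on average. Its CD41- cells had 364 ± 11.2 CPM in control and 249 ± 41.0 CPM in depleted mice, its CD41+ cells 345 ± 20.2 and 213 ± 30.8 CPM, and the fold change was -0.62 ± 0.12 (adjusted p = 0.0082).

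Of 16 tested erythroid genes (18 listed), 3 were higher and 0 lower along CD41, against 2.73% higher and 2.65% lower among all genes. The median over the 16 was 1.12, and over all genes -0.03. Epor, the erythropoietin receptor, was at 20.1 ± 4.91 CPM in CD41- and 56.5 ± 15.7 CPM in CD41+ cells of control mice, with a difference of 1.28 ± 0.21 (adjusted p = 0.0052). Aqp1, a water channel of red cells, was higher by 1.67 ± 0.24 (adjusted p = 0.0024). After depletion 0 of the 16 passed with edgeR, against 6.33% of all genes, and Aqp1 had the smallest p (-0.48 ± 0.24, adjusted p = 0.274).

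Gata1 is also made by eosinophils, mast cells and red cell precursors, and their genes were read along CD41 beside it. Of the eosinophil markers 6 of 7 were tested and 0 passed, against 5.38% of all genes. All 6 fitted values were positive, however, with a median of 4.21 on average and 8.34 in control mice. Their sum ranged from 0.730 to 24.5 CPM in control CD41- and from 555 to 563 CPM in control CD41+ libraries. In depleted mice it ranged from 9.21 to 799 CPM without and from 252 to 985 CPM with CD41. After depletion the 6 fitted values were also positive on average over the fractions, with a median of 4.00. Of these 0 passed, against 6.33% of all genes. By fraction, the median was 8.13 in CD41- cells, with 6 positive, and -0.29 in CD41+ cells, with 2 positive. Ear1 and Prg3 had a mean of 0 CPM in control CD41- cells, so their large fitted values rest on a group at the floor. The erythroid genes had 15 of 16 positive values, and their sum ranged from 603 to 1660 CPM in control CD41- and from 2469 to 2741 CPM in control CD41+ libraries, and from 675 to 2245 and from 1051 to 2110 CPM in depleted mice. The mast cell and basophil markers (8 of 10 tested, 0 passing) had 5 positive values and a median of 0.78. Their sum ranged from 20.9 to 578 CPM and from 53.2 to 248 CPM in the 2 fractions of control mice, and from 11.7 to 311 and from 85.3 to 255 CPM in those of depleted mice, and Cma1 and Tpsb2 of that list were at 0 in all 11 libraries. The eosinophil and erythroid sums of control mice thus did not overlap between the fractions. The same held for the macrophage, neutrophil, endothelial and stromal, and stem cell sums given below. In depleted mice the eosinophil, erythroid, and mast cell and basophil sums all overlapped. Control CD41- replicate 3, which had the lowest Gata1 of the 11 libraries at 6.81 CPM, had the highest mast cell and basophil sum and the lowest eosinophil, erythroid and macrophage sums. The part of these cells in the Gata1 difference was not tested.

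**Figure D5:**
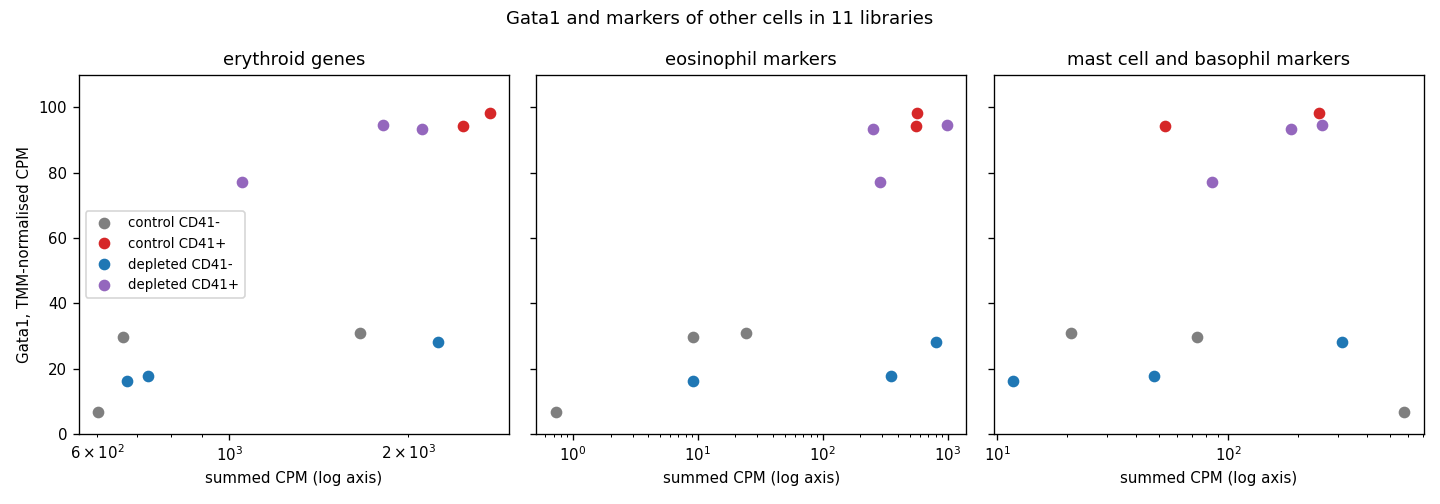
Gata1 in TMM-normalised CPM (y axis) against the summed CPM of erythroid genes, eosinophil markers and mast cell and basophil markers (x axes, log scale) in 11 libraries, with colours for the 4 groups. CD41+ libraries have Gata1 at 77.2 to 98.3 CPM and CD41- libraries at 6.81 to 30.8 CPM; in control mice the eosinophil sums lie at 0.730 to 24.5 CPM in CD41- and at 555 to 563 CPM in CD41+ libraries.

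Markers of further cells were read in the same way, beside the 5.38% of all genes that passed along CD41 (2.73% higher and 2.65% lower). Summed macrophage markers (1 of 10 passing, Mrc1, higher) ranged from 67.9 to 393 CPM in CD41- and from 352 to 611 CPM in CD41+ libraries. Summed endothelial and stromal markers (5 of 9 tested passing, all higher) ranged from 81.4 to 395 and from 218 to 670 CPM. Summed neutrophil markers (0 of 12 passing) ranged from 4408 to 36974 and from 15106 to 84252 CPM, and lymphocyte markers (0 of 4 tested passing) from 36.4 to 92.1 and from 46.3 to 113 CPM. Summed stem cell markers, of which Hlf, Procr, Fgd5 and Ly6a were lower and Slamf1 higher, ranged from 901 to 1767 CPM in CD41- and from 374 to 1079 CPM in CD41+ libraries. Ly6a, Slamf1 and Kit encode Sca-1, CD150 and c-Kit, by which the cells were sorted. Kit was the largest part of the sum, at 635 CPM in control CD41- cells, and did not pass (adjusted p = 0.487). In control mice alone, the macrophage, neutrophil, endothelial and stromal, and stem cell sums did not overlap between the fractions. Macrophage sums were 67.9 to 230 CPM in CD41- and 352 to 390 CPM in CD41+ libraries of control mice. Stem cell sums there were 1474 to 1767 CPM in CD41- and 738 to 1079 CPM in CD41+ libraries. The lymphocyte sums overlapped. The part of these cells in the values of Gata1, Gfi1b, Lyl1, Cbfa2t3 and Erg was not tested.

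Genes with the most similar pattern were found for each factor by the root mean square difference of mean-centred log2 levels over the 11 libraries, among 10800 other genes that averaged 5 CPM or more. For Gata1 they were Slc14a1 (0.577), Tuba8 (0.598) and Fgf3 (0.614), against a spread of 1.23 of Gata1 itself. For Nfe2 they were Tbxas1 (0.111), Dcun1d1 (0.113) and Tfr2 (0.118), against a spread of 0.345. For Gfi1b they were Gdf3 (0.207), Mcrip2 (0.242) and Lims1 (0.244). For Lyl1 they were Trp53i13 (0.120), Net1 (0.133) and Il21r (0.148), and for Cbfa2t3 they were Ppp1r9b (0.186), the stem cell factor Hlf (0.242) and Gprc5b (0.250). Among the factors themselves the pair with the most similar pattern was Gata2 and Runx1 (0.305), followed by Nfe2 and Lyl1 (0.332), and the least similar was Gata1 and Cbfa2t3 (1.92). These distances share depth and library composition and are given without a test.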

How the data were processed

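RNA of about 1000 sorted cells per library was reverse transcribed with an oligo-dT primer and template switching, amplified and tagmented, per the labels' protocols. The deposited values were counts per gene made by the authors with cutadapt, STAR and HTSeq 0.6.1p1 on GRCm38 or mm10, per the submitters' processing notes. These sources state neither the annotation release nor a strand setting. Identifiers were matched to symbols, positions and exon lengths in GENCODE M21 (259 of 49585 had none).

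Groups came from the labels, which call the libraries biological replicates and state no batch or pairing. Library totals (0.974 M to 9.95 M counts) set the precision of low genes. No 2 libraries were identical. Genes were kept by filterByExpr (minimum count 10, minimum total 15), normalised by TMM and fitted with edgeR 4.0.16 (R 4.3.3), quasi-likelihood, robust, with 1 coefficient per group and 7 comparisons. Each SE was obtained as the size of the log2 value divided by the root of its F statistic. The procedure was tested on simulated data. The alternatives tried were no filter, RLE factors, scaling by library size alone, DESeq2 1.42.0, fits of the compared groups only, fits with consecutive title numbers as a block, and fits without each library.

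The 10 factors and the 14 other lists were chosen with earlier results of these data known. Named were all factors, of each other list the genes that passed and those with the smallest p, and the 3 nearest genes of each factor, of which the text gives a selection. Promoter windows came from RefSeq on GRCm38.p6, and the 2 factors with no entry there are Fli1 and Nfe2. Figures were drawn with matplotlib 3.10.9.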

Additional observations from a re-analysis of the deposited data

How the results depend on the processing

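Counts of the 10 factors that passed depended on the tool. Along CD41 in control mice 2 passed, against 4 with DESeq2 and 1 with the compared groups only. In depleted mice 0 passed, against 2 with DESeq2 or no filter and 1 with the compared groups only. After depletion in CD41- cells 1 passed, against 2 with RLE factors or the compared groups only and 3 with no filter or DESeq2. The depletion average gave 2, and 4 with DESeq2. Without 1 library at a time the counts ranged over 0 to 3, 0 to 1 and 3 to 4 along CD41 (control, depleted, average), and over 0 to 3, 0 to 0 and 1 to 3 after depletion (CD41-, CD41+, average), and stayed at 0 for the difference of responses.

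Over all genes, 352 passed along CD41 in control mice (1142 with no filter, 994 with DESeq2, 143 with the compared groups only, 48 to 545 without 1 library). The split was 212 higher and 140 lower, and 129 and 157 with library size alone, where the median over all genes was -0.15 in place of -0.03. The other counts were 26 in depleted mice (387 with no filter, 204 with DESeq2, 5 to 32 without 1 library) and 724 on average (1674, 1441 and 300 to 788). After depletion they were 429 in CD41- cells (862, 851 and 169 to 560), 14 in CD41+ cells (317, 266, 0 with the compared groups only, 0 to 57) and 851 on average (1336, 1407 and 291 to 1060). The difference of responses gave 0 (178 with no filter, 35 with DESeq2, 0 to 0 without 1 library). The causes were not tested.

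With consecutive title numbers as a replicate block, a pairing the labels do not state, 1 factor passed in depleted mice and 158 genes, and 2 genes passed in the difference of responses. Deviations of paired libraries correlated at 0.0801 and 0.0977 in control and at 0.228, 0.343 and 0.207 in depleted mice. The depletion comparisons could not be fitted with the block, since pairs lie within treatments.

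Near-zero averages changed sign. Gata2 along CD41 was 0.0128 with RLE factors, 0.0108 with DESeq2, 0.0715 with the replicate block and -0.127 to 0.117 without 1 library. After depletion and without 1 library, Gata1 ranged from -0.329 to 0.0385, Fli1 from -0.0513 to 0.0247 and Runx1 from -0.148 to 0.146. With library size alone, levels in control CD41+ cells were 91.4 CPM for Gata1, 203 CPM for Gata2 and 594 CPM for Nfe2. Zfpm1 rested on 6 to 79 counts per library.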
